A study of Mus with 6 samples.

Results

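The 10 genes described here encode proteins that build, cut or steady the extracellular matrix. They are the fibrillin gene Fbn1, the matricellular genes Sparc and Sparcl1, the protease genes Mmp2 and Mmp14, the inhibitor genes Timp1, Timp2 and Timp3, and the cross-linking enzyme genes Lox and Loxl2. They were taken by symbol from a table of 20893 genes, and all 10 were found. RNA sequencing gave their levels in 6 libraries of cardiac microvascular endothelial cells, which had been sorted on magnetic beads for CD31 and against CD45. CD31, encoded by Pecam1, marks endothelium and platelets, and CD45, encoded by Ptprc, marks leukocytes. In both groups the left coronary artery had been ligated, an operation that produces a myocardial infarction. No unoperated group was analysed here, so the values compare genotypes within infarcted hearts only. The 3 wild-type (WT) libraries and the 3 libraries of mice without Ccl28 (KO) both carry the replicate numbers 2, 3 and 4. The genotype field reads Ccl28-KO for KO replicate 2 but Ccl29-KO and Ccl30-KO for KO replicates 3 and 4, and the titles, which read Ccl28-KO for all 3, were followed. Strain, sex, age, the time after surgery and the knockout allele are not given in the sources used here. No source says that a replicate is its own animal, so the p-values rest on the spread among these samples alone, and that spread may be technical.

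The extracellular matrix around vessels is a mesh of collagens, laminins, elastic fibres and soluble proteins bound to them. Matrix metalloproteinases (MMPs) cut this mesh, tissue inhibitors of metalloproteinases (TIMPs) bind and block the MMPs, and lysyl oxidases cross-link collagen and elastin into stable fibres. Matricellular proteins such as SPARC sit in the matrix and tune how cells attach to it and how collagen is assembled, without being its main building material. After an infarction this system removes old matrix and lays down the scar, and endothelial cells need pericellular proteolysis to sprout.

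Levels are in FPKM, read fragments per unit of transcript length and of library size, which allows genes of different length to be compared within a library. Means are given ± SD with n = 3 per genotype. Differences are log2 fold changes, KO over WT, of FPKM + 1, a scale on which the change of low genes is understated. They were tested with limma over 10806 genes that had at least 1 FPKM in at least 3 libraries, and a gene was called at a Benjamini-Hochberg adjusted p under 0.05. Intervals are 95% intervals of a single gene, without adjustment for the number of genes.

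The libraries held 39104282 to 40500067 reads on genes in WT and 36004457 to 37780513 in KO. Ccl28 had 16, 11 and 24 reads in WT replicates 2, 3 and 4 and 0 reads in each KO library, at least 5.28-fold lower with a floor of 3 reads per library, which covers counting error only (exact two-sided permutation p = 0.1, the smallest that 3 against 3 samples allow). Pecam1 stood at 704.7 ± 35.9 FPKM in WT and 610.8 ± 45.1 in KO, and Ptprc at 1.23 ± 0.438 and 1.16 ± 0.213. Of all tested genes, 44.2% were called, 1982 higher and 2790 lower in KO, or 2576 higher and 2390 lower with median-ratio scaling. The change of a gene followed the length of its transcript. When the tested genes were split by length into 5 bins, the median log2 fold change of the 2168 shortest, up to 1791 nt, was 0.35, and that of the 2161 longest, from 6233 nt, was -0.38. The slope of a library on log2 length was 0.101 to 0.135 in WT and -0.155 to -0.091 in KO, so genotype and the length trend cannot be told apart. The 10 genes and the gene lists are therefore also given with a linear length trend removed from every library, under which 20.1% of genes were called.

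Most of the tested matrix genes were lower in KO. Of the 10 genes, 9 passed the expression filter, and 6 of these were lower and 1 was higher in KO in limma. Fbn1, Mmp14, Timp3, Timp2, Mmp2 and Sparcl1 were the 6, and Timp1 was the 1. The background was 25.8% of tested genes called lower and 18.3% called higher. The median log2 fold change of the 9 was -0.35, against -0.03 over all tested genes. With the length trend removed 4 of the 9 remained lower (Fbn1, Mmp14, Timp2 and Timp3) and Timp1 was no longer called, beside a background of 9.63% lower and 10.4% higher. In the authors' deposited table, a DESeq2 comparison over 17686 genes, 4 of the 10 were lower and 1 was higher at q under 0.05, against 15.7% and 13.6% of the genes there. The KO and WT values did not overlap for 7 of the 10, with 6 lower and 1 higher in KO, where 31.9% of tested genes lay wholly lower and 22.8% wholly higher.

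**Figure D1:**
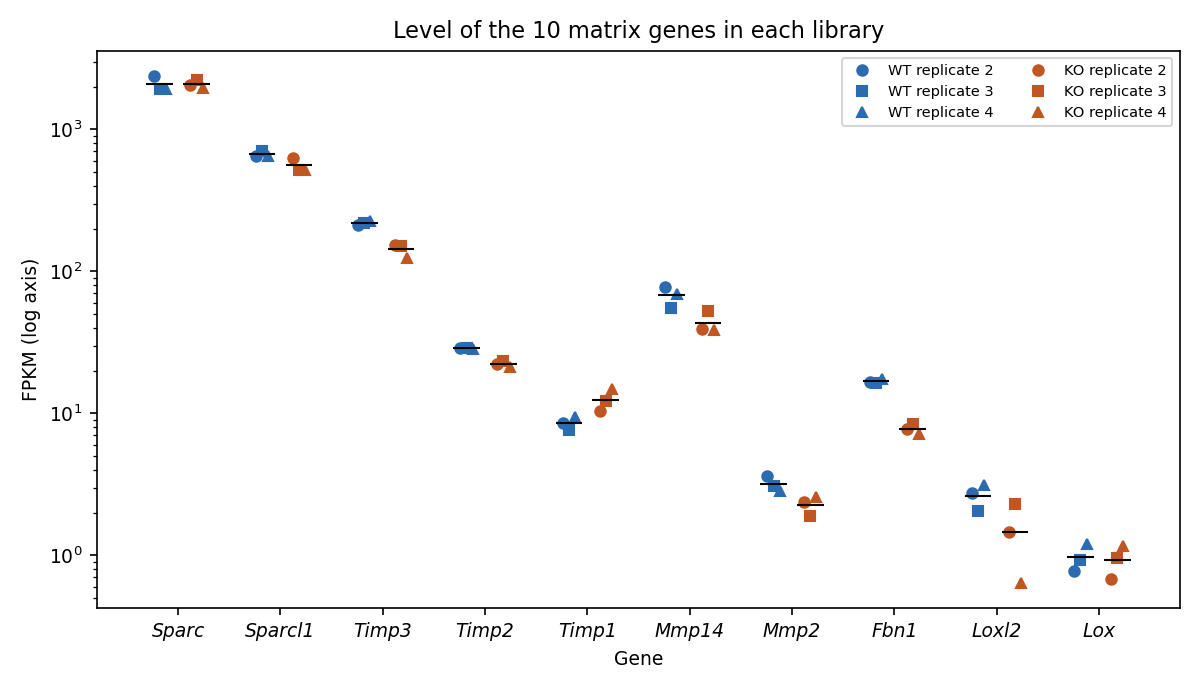
FPKM (log axis) of the 10 genes in each library, WT in blue and KO in orange, with the marker shape giving the replicate number and the bar the mean of 3 libraries. Levels run from at least 1921 FPKM for Sparc to at most 1.21 for Lox, and the KO points lie apart from the WT points for 7 genes.

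The levels covered a wide range. Sparc was the 10th most abundant of the 20893 genes by its WT mean and Sparcl1 the 72nd. Together they made up 87.8% to 89.6% of the summed FPKM of the 10 genes in WT and 91.5% to 92.2% in KO. Timp3 ranked 254th and Mmp14 911th. Timp2, Fbn1 and Timp1 ranked 2210th, 3547th and 5608th, and Mmp2, Loxl2 and Lox lay at 8417th, 8871st and 10794th. In KO the ranks were 16th for Sparc, 115th for Sparcl1, 450th for Timp3 and 1547th for Mmp14. The order of the 10 genes by mean level was Sparc, Sparcl1, Timp3, Mmp14, Timp2, Fbn1, Timp1, Mmp2, Loxl2 and Lox in WT, and in KO the places of Fbn1 and Timp1 were exchanged. In WT, Mmp2 (2.84 to 3.65 FPKM) and Loxl2 (2.05 to 3.13) overlapped, while each of the other neighbours in that order was separated. In KO, Mmp2 and Loxl2 overlapped again (1.9 to 2.57 and 0.645 to 2.3), and so did Loxl2 and Lox (0.681 to 1.17).

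Fbn1 encodes fibrillin-1, the main protein of the microfibrils that scaffold elastic fibres and hold latent TGF-beta. Its gene, with ID 14118, spans 125300594 to 125506485 of chromosome 2 (GRCm38, the build that the submitters' notes name as mm10), with no other annotated gene across it. Its FPKM was 16.7, 16.2 and 17.6 in WT replicates 2, 3 and 4 and 7.8, 8.43 and 7.19 in KO replicates 2, 3 and 4. Every KO library lay far under every WT library, with a gap that was wide beside the spread within a genotype. The means were 16.9 ± 0.69 and 7.81 ± 0.619, a 2.16-fold lower level in KO (log2 fold change -1.02, SE 0.083, interval -1.21 to -0.84, adjusted p = 0.000217 in limma). Only 0.491% of tested genes had a lower log2 fold change. The implied transcript of Fbn1 is 10127 nt, which places it among the longest genes, where 1431 of 2161 genes fell. Removal of the length trend left a log2 fold change of -0.61 (interval -0.76 to -0.46, adjusted p = 0.00193), and 1.75% of genes lay lower.

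Mmp14 and Mmp2 belong to a pair of proteases that act in sequence. Mmp14 encodes a membrane-bound collagenase that is needed for endothelial invasion of collagen and that activates the secreted gelatinase MMP2 at the cell surface, with TIMP2 as the bridge between them. The ID of Mmp14 is 17387, and it occupies 54431598 to 54442456 of chromosome 14. Its FPKM was 77.7, 55.6 and 69.6 in WT replicates 2, 3 and 4 and 39.4, 52.5 and 38.4 in KO replicates 2, 3 and 4. The groups were separate by a narrow margin, between WT replicate 3 and KO replicate 3. The means of 67.6 ± 11.2 and 43.4 ± 7.87 FPKM gave a 1.56-fold lower level in KO (log2 fold change -0.63, SE 0.141, interval -0.94 to -0.31, adjusted p = 0.00613 in limma). The log2 fold change was -0.54 with the length trend removed (adjusted p = 0.0241). Without an expression filter, when all 20893 genes were tested, the adjusted p of Mmp14 was 0.0554.

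Mmp2 was far less abundant than Mmp14, with a ratio of Mmp14 to Mmp2 FPKM of 18.2 to 24.5 in WT and 15 to 27.7 in KO. Its gene ID is 17390, and it occupies 92827290 to 92853421 of chromosome 8, where its end meets the long non-coding RNA gene Gm45472. The FPKM of Mmp2 was 3.65, 3.07 and 2.84 in WT replicates 2, 3 and 4 and 2.37, 1.9 and 2.57 in KO replicates 2, 3 and 4. The lowest WT library was just over the highest KO library, and the depth was 226 to 473 reads. Mean Mmp2 was 3.18 ± 0.415 FPKM in WT and 2.28 ± 0.344 in KO, 1.4-fold lower (log2 fold change -0.35, interval -0.61 to -0.09, adjusted p = 0.0333 in limma). The threshold was missed without WT replicate 2 (adjusted p = 0.107), WT replicate 3 (0.0562), KO replicate 2 (0.06) or KO replicate 3 (0.112), with the length trend removed (0.0691), with quantile normalization (0.135) and without an expression filter (0.113). The authors' deposited table gives Mmp2 a q of 0.0818.

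In limma Timp3 and Timp2 were lower and Timp1 was higher in KO, but the call of Timp1 was lost with the length trend removed. Timp3 encodes the inhibitor that stays bound to the matrix and that also blocks ADAM and ADAMTS proteases and the binding of VEGF to its receptor KDR. It was the most abundant of the TIMP genes, with FPKM of 211.1, 218.9 and 226.2 in WT replicates 2, 3 and 4 and 153.5, 151.5 and 123.7 in KO replicates 2, 3 and 4. All 3 KO libraries lay well under the WT range, and KO replicate 4 was the lowest. Mean Timp3 went from 218.7 ± 7.57 to 142.9 ± 16.6 FPKM, 1.53-fold lower (log2 fold change -0.62, SE 0.091, interval -0.82 to -0.41, adjusted p = 0.000879 in limma). The log2 fold change of Timp3 in the fit without the length trend was -0.46 (adjusted p = 0.00792).

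Timp2 encodes the inhibitor that both blocks MMP2 and helps MMP14 to activate it. Its FPKM was 29.1, 28.8 and 28.4 in WT replicates 2, 3 and 4 and 22.2, 23.4 and 21.3 in KO replicates 2, 3 and 4. The WT libraries agreed closely, and all KO libraries were lower. The means were 28.8 ± 0.308 and 22.3 ± 1.06 FPKM, 1.29-fold lower in KO (log2 fold change -0.35, SE 0.069, interval -0.51 to -0.2, adjusted p = 0.00309 in limma). For Timp2 the value without the length trend was -0.28 (adjusted p = 0.0175).

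Timp1 encodes a secreted inhibitor of most MMPs that is induced by cytokines and wounding and is also stored in platelets. In WT replicates 2, 3 and 4 its FPKM was 8.63, 7.64 and 9.4, and in KO replicates 2, 3 and 4 it was 10.3, 12.2 and 14.8. Timp1 was thus higher in every KO library than in any WT library, on 266 to 330 reads in WT and 347 to 474 in KO. The means were 8.56 ± 0.882 and 12.4 ± 2.25 FPKM, 1.45-fold higher in KO (log2 fold change 0.48, SE 0.125, interval 0.2 to 0.76, adjusted p = 0.0119 in limma). Timp1 has a short transcript, of 890 nt by the recovered reads, and in its length bin 1296 of 2168 genes rose and 34 fell. Once that trend was taken out the log2 fold change of Timp1 was 0.09 (interval -0.16 to 0.34, adjusted p = 0.616). Without an expression filter the adjusted p of Timp1 was 0.0673.

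**Figure D2:**
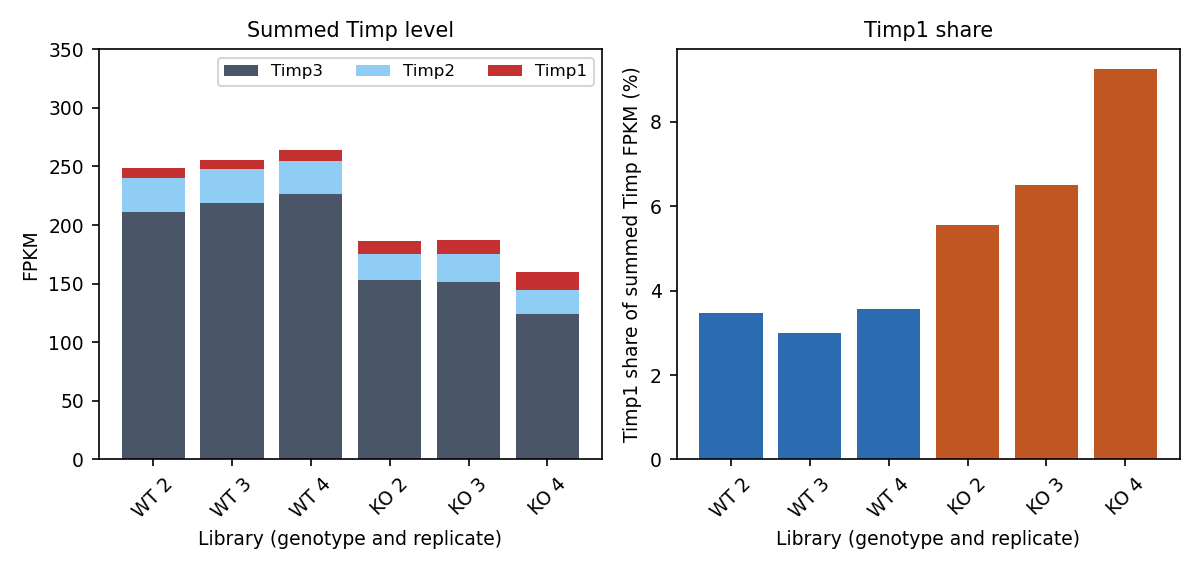
Left, FPKM of Timp3, Timp2 and Timp1 stacked for each library; right, Timp1 as a percentage of that sum, WT in blue and KO in orange. The summed level is 248.8 to 264.1 FPKM in WT and 159.8 to 187.1 in KO, while the Timp1 share is 2.99% to 3.56% in WT and 5.55% to 9.26% in KO.

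Summed over the 3 inhibitor genes, TIMP transcripts stood at 256.1 ± 7.68 FPKM in WT and 177.6 ± 15.4 in KO, and Timp3 supplied most of them in every library. The make-up of the sum also differed: Timp1 was 3.34% ± 0.305 of it in WT and 7.1% ± 1.92 in KO. The ratio of Timp3 to Timp1 was 24.1 to 28.6 in WT and 8.37 to 14.9 in KO. Such a ratio within a library is free of library scaling, but it sets a transcript of 4681 nt against one of 890 nt and so carries the length trend. The ratio of Timp3 to Mmp14, whose lengths are closer (4681 and 3801 nt), was 3.3 ± 0.611 in WT and 3.34 ± 0.515 in KO, and the ranges overlapped.

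The TIMP genes lie within or across other annotated genes. Timp1 (gene ID 21857, chromosome X from 20870166 to 20874737) lies inside the span of the synapsin gene Syn1. Timp3 (gene ID 21859, chromosome 10 from 86300412 to 86349505) lies inside Syn3, and Timp2 (gene ID 21858, chromosome 11 from 118301061 to 118355411) contains Cep295nl. Whether strand was used in counting is not given in the sources used here. The overlapping genes had few reads: Syn1 had 0 to 10 reads per library, Syn3 0 to 17 and Cep295nl 3 to 13, against at least 266 reads for Timp1.

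Sparc encodes osteonectin, a collagen-binding matricellular protein that endothelial cells secrete in quantity. Its ID is 20692, and it occupies 55394159 to 55420080 of chromosome 11. Its FPKM was 2372, 1921 and 1936 in WT replicates 2, 3 and 4 and 2044, 2219 and 1948 in KO replicates 2, 3 and 4. The groups overlapped throughout, and the highest and the lowest value were both WT. Mean Sparc was 2076 ± 256.2 FPKM in WT and 2070 ± 137.2 in KO. The log2 fold change was 0.00 with an interval of -0.25 to 0.25 (adjusted p = 0.996 in limma), so a change beyond about 0.25 on the log2 scale in either direction lies outside the interval. Sparc took 0.507% to 0.627% of all reads in WT and 0.515% to 0.586% in KO. Quantile normalization, which forces the libraries to share a distribution, gave Sparc a log2 fold change of -0.44 (adjusted p = 0.00192).

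Sparcl1 encodes hevin, the closest relative of SPARC, which has counter-adhesive activity and is abundant in vessel walls. Its ID is 13602, and it occupies 104079108 to 104114088 of chromosome 5, where it overlaps LOC330143, a long non-coding RNA gene with 197 to 696 reads per library against at least 69168 for Sparcl1. The FPKM of Sparcl1 was 648.6, 698.6 and 652.6 in WT replicates 2, 3 and 4 and 632.1, 520.8 and 521.5 in KO replicates 2, 3 and 4. KO replicate 2 came close to the WT range, and the other 2 KO libraries were well under it. The means were 666.6 ± 27.8 and 558.1 ± 64 FPKM, 1.19-fold lower in KO (log2 fold change -0.26, SE 0.093, interval -0.47 to -0.05, adjusted p = 0.045 in limma). The call was kept when KO replicate 2 was left out and lost when any other library was, with adjusted p of 0.0572 and 0.122 without WT replicates 2 and 3, 0.0925 without WT replicate 4, and 0.135 and 0.14 without KO replicates 3 and 4. It was also lost with the length trend removed (log2 fold change -0.18, adjusted p = 0.178), with median-ratio scaling (adjusted p = 0.121) and without an expression filter (adjusted p = 0.138). Quantile normalization gave Sparcl1 a log2 fold change of -0.64 (adjusted p = 0.00139). In the authors' deposited table Sparcl1 has a q of 0.08.

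Lox and Loxl2 encode copper-dependent enzymes that oxidise lysines of collagen and elastin, the first step of cross-linking, and LOXL2 also acts on the collagen IV of basement membranes. Lox (gene ID 16948) did not reach the expression filter. The FPKM of Lox was 0.781, 0.922 and 1.21 in WT replicates 2, 3 and 4 and 0.681, 0.959 and 1.17 in KO replicates 2, 3 and 4, on 127 to 236 reads. The groups overlapped almost fully, at 0.972 ± 0.22 and 0.935 ± 0.243 FPKM (exact two-sided permutation p = 0.8). Loxl2 (gene ID 94352, chromosome 14 from 69608692 to 69695834, overlapping the non-coding genes Gm27177 and Mir6950) had FPKM of 2.73, 2.05 and 3.13 in WT replicates 2, 3 and 4 and 1.46, 2.3 and 0.645 in KO replicates 2, 3 and 4. KO replicate 3 lay inside the WT range, and KO replicate 4 was the lowest by far, with 136 reads against 324 and 502 in KO replicates 2 and 3. Mean Loxl2 was 2.64 ± 0.549 FPKM in WT and 1.47 ± 0.83 in KO. Its log2 fold change of -0.60 (SE 0.223, interval -1.1 to -0.1) missed the threshold with an adjusted p of 0.0509 in limma. It passed without WT replicate 3 (adjusted p = 0.046), without KO replicate 3 (adjusted p = 0.00762), and in limma-voom on the recovered reads (log2 fold change -0.99, adjusted p = 0.0176), a setting chosen after seeing the data. Removal of the length trend gave -0.37 (adjusted p = 0.251). Loxl2 also did not pass in limma with quantile normalization (adjusted p = 0.113), median-ratio scaling (0.0674), the replicate number as a block (0.0819) or no expression filter (0.208). In the authors' deposited DESeq2 comparison Loxl2 has a log2 fold change of -0.77 and a q of 0.304.

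**Figure D3:**
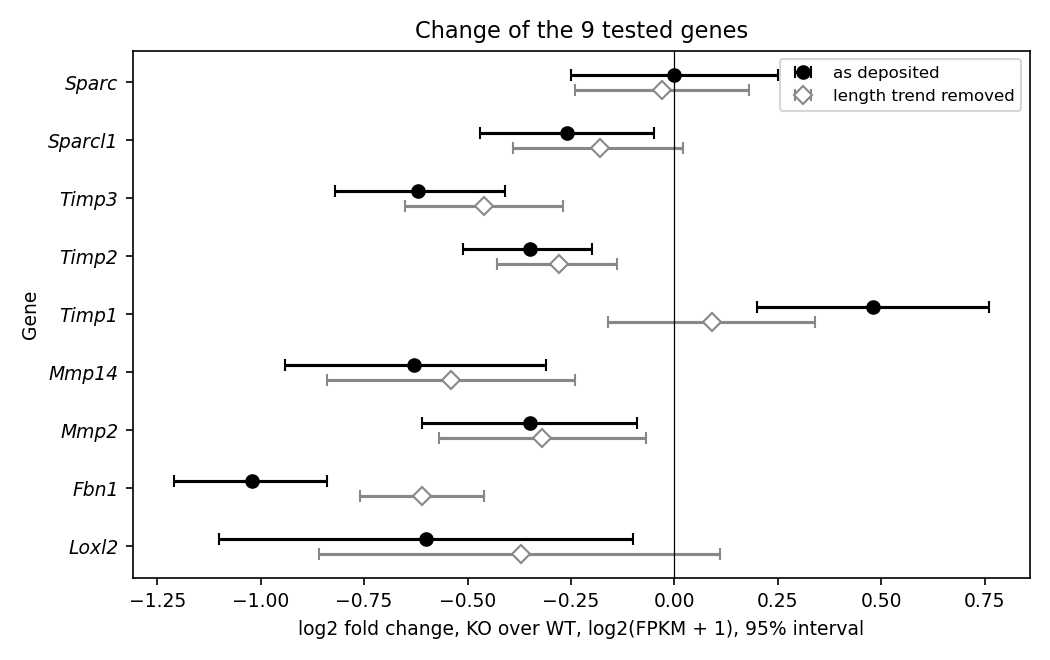
log2 fold change of KO over WT in limma for the 9 tested genes with 95% intervals. Filled circles are from the FPKM as deposited, and open diamonds are with the length trend removed. The intervals of Fbn1, Mmp14, Mmp2, Timp2 and Timp3 stay under 0 in both, and that of Timp1 spans 0 once the trend is removed.

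**Figure D4:**
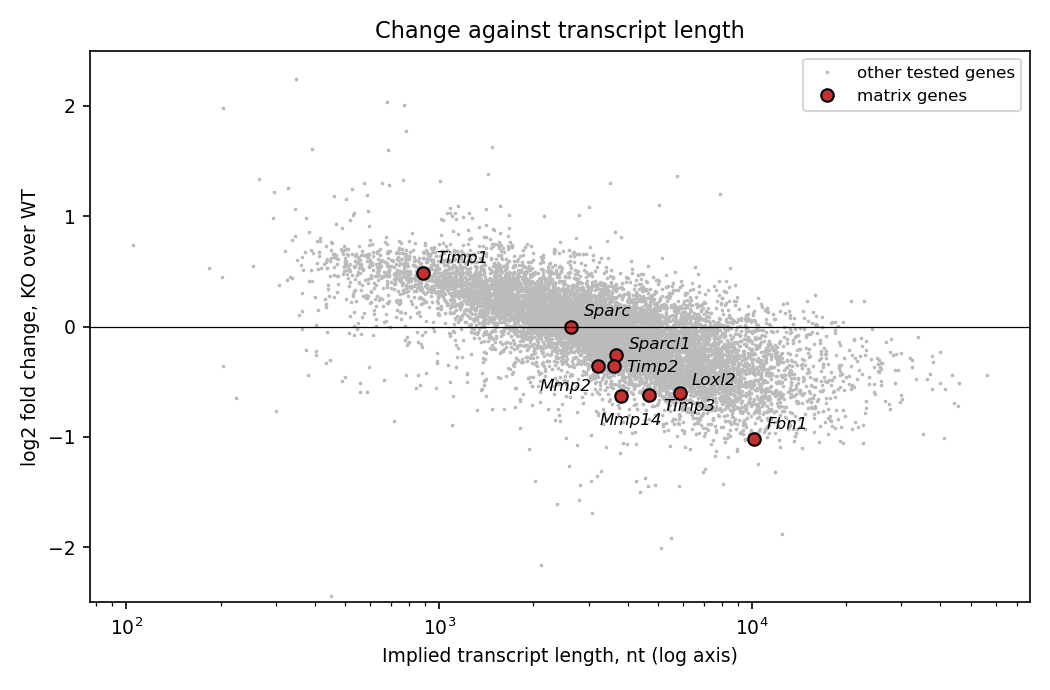
log2 fold change of KO over WT against implied transcript length (log axis) for the 10806 tested genes in grey, with the 9 tested matrix genes in red. The grey cloud slopes down with length, Timp1 at 890 nt lies in its upper left part, and Mmp14, Timp3 and Fbn1 lie in its lower part.

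In length the 10 genes fall into different bins. Sparcl1, Mmp2, Mmp14 and Timp2, with implied transcripts of 3204 to 3801 nt, fall in the bin of 2868 to 4128 nt, where the median log2 fold change of 2160 genes was -0.05, 348 fell and 163 rose. The calls of Mmp14 and Timp2 were kept after the length correction, and those of Sparcl1 (adjusted p = 0.178) and Mmp2 (adjusted p = 0.0691) were lost in limma. Of all tested genes 5.4% had a lower log2 fold change than Mmp14, and 2.51% with the length trend removed. The same shares were 5.63% and 3.76% for Timp3, 19.1% and 11.5% for Timp2, 19.3% and 9.01% for Mmp2, and 26.5% and 20.1% for Sparcl1.

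Markers of other cells that a bead-sorted preparation can carry moved as well. The marker counts here and in the next paragraph stand beside 25.8% of all tested genes lower and 18.3% higher in KO. With the length trend removed that background was 9.63% and 10.4%. In bulk RNA, fewer cells of a type and less RNA per cell cannot be told apart. Of 8 tested fibroblast markers 5 fell in limma and 3 did not pass, and the summed FPKM of the list of 10 was 62.2 to 70.7 in WT and 49 to 52.8 in KO. With the length trend removed 6 of the 8 fell. Its most abundant members were Pi16 (21.8 ± 1.25 and 19.6 ± 1.27 FPKM in WT and KO), Gsn (18.4 ± 2.24 and 16.4 ± 1.32) and Dcn, the decorin gene (7.65 ± 1.03 and 4.39 ± 0.38). Of 10 mural cell markers, those of pericytes and smooth muscle, 8 fell, or 7 with the length trend removed, and the summed FPKM was 463.3 to 609.9 in WT and 347.4 to 544 in KO. Rgs5, a pericyte marker, fell from 194.7 ± 27.8 to 109.4 ± 28.9 FPKM. The smooth muscle genes Acta2 (144.6 ± 22.8 and 145.3 ± 30.5) and Tagln (128.1 ± 20.3 and 137.4 ± 30.6) overlapped and were the 2 that did not pass. Another smooth muscle gene, Myh11, was among the 8 that fell. Fibroblasts and mural cells are known to express Fbn1, Mmp2, Mmp14, Timp2, Timp3 and Loxl2. The part of these cells in the lower values was not tested.

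Many but not all markers of blood cells were higher in KO, beside the higher Timp1. Among the 10 markers of monocytes and macrophages 6 rose in limma and 4 did not pass, with a summed FPKM of 94.1 to 232.5 in WT and 228 to 351.8 in KO, led by Lyz2 (98 ± 46.6 and 190.2 ± 43.5), C1qb and C1qa. Ptprc (log2 fold change -0.03, adjusted p = 0.895 in limma) and Adgre1 (0.16, adjusted p = 0.618) were among the 4 that did not pass. After the length correction 1 of these 10 rose. All 3 tested neutrophil markers, S100a9, S100a8 and Csf3r, rose (sum of the 6 listed 14.8 to 19.2 FPKM in WT and 35.3 to 56.3 in KO). The B cell receptor genes Cd79a and Cd79b rose 2.91-fold and 2.11-fold. Of 7 platelet and erythroid markers 5 rose, with a sum of 247.7 to 317.5 FPKM in WT and 402.6 to 522.6 in KO, including the haemoglobin genes Hbb-bs and Hba-a1 and the platelet factor gene Pf4 (26.3 ± 9.25 and 59.6 ± 11.4). That count was 2 without WT replicate 4 or KO replicate 2, and 1 with the length trend removed. The part of blood cells in the higher Timp1 was not tested. The 8 cardiomyocyte markers summed to 127.4 to 183.6 FPKM in WT and 168 to 200.5 in KO, with 1 of 6 tested higher and 1 lower (1 and 0 with the length trend removed), and Tnnt2, Myl3 and Actc1 as the most abundant. Wt1, listed as a mesothelial marker, fell from 11.8 ± 0.499 to 8.73 ± 0.164 FPKM, and the Schwann cell marker S100b was at most 0.258 FPKM on average. Wt1 was the only tested gene of that list, and the other mesothelial markers, Upk3b and Msln, were under the expression filter. No marker named here was at 0 in all 6 libraries. Of 10 endothelial markers 3 fell and 2 rose, with sums of 4612 to 4738 and 4299 to 4691 FPKM. With quantile normalization 7 of these 10 fell and 3 did not pass, and with the length trend removed 3 fell and 7 did not pass.

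The wider matrix system was described by 7 lists with 127 genes found, of which 117 are not among the 10. Of the 80 tested genes outside the 10, 37 fell (46.2%) and 10 rose (12.5%), where 25.8% of all tested genes fell and 18.3% rose. Their median log2 fold change was -0.27, against -0.03 over all tested genes. After the length correction 22 of the 80 fell and 4 rose, 27.5% and 5% beside a background of 9.63% and 10.4%, and their median was -0.15. The counts per list that follow include the genes described above and stand beside the same background.

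Among MMP genes and their activators, 3 of 9 tested genes fell (Mmp14, Mmp2 and Mmp17) and 1 rose, shares near the background. The 1 was Bsg, which encodes the MMP inducer basigin, at 240.6 ± 8.87 FPKM in WT and 289.8 ± 7.69 in KO (adjusted p = 0.0107 in limma; lost without WT replicate 4 and with the length trend removed, log2 fold change 0.1). Mmp17, another membrane-bound MMP gene, went from 3.48 ± 0.119 to 2.71 ± 0.344 FPKM (adjusted p = 0.0451), a call that was lost without any 1 of the 3 WT libraries or without KO replicate 3 or 4, and with the length trend removed. Only 1 to 2 genes of this list fell when a library was left out, 1 without WT replicate 2 or without KO replicate 3, and 1 with the length trend removed. Tested but not passed in limma were Mmp9 (log2 fold change 0.81, adjusted p = 0.107), Mmp15 (-0.21, adjusted p = 0.082), Mmp11, Mmp28 and Furin. The genes of this list that were found but not tested were under the filter, among them Mmp3, Mmp8, Mmp12 and Mmp13.

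Genes of the ADAMTS and ADAM families, whose proteases cut proteoglycans and shed cell-surface proteins, were mostly lower. Of 15 tested genes 10 fell, among them the ADAMTS-like gene Adamtsl4, and 1 rose. Adamts1, which encodes a versican-cleaving protease, fell from 92.1 ± 15.2 to 33.9 ± 9.08 FPKM, 2.72-fold (log2 fold change -1.43, adjusted p = 0.000522 in limma). Adam10, which encodes the sheddase of Notch receptors, went from 44.5 ± 4.31 to 27.9 ± 1.07 FPKM and Adam19 from 6.41 ± 0.652 to 3.63 ± 0.194. With the length trend removed the log2 fold changes were -1.26 for Adamts1, -0.49 for Adam10 and -0.38 for Adam19, and all 3 were still called. Adam15 was the gene that rose, from 266 ± 11.3 to 302.1 ± 3.47 FPKM (adjusted p = 0.0498), and that call was kept only without WT replicate 2 among the 6 libraries left out in turn. The count of lower genes was 6 without WT replicate 4 or KO replicate 4, and also with the length trend removed.

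In the list of plasminogen activators and cathepsins, which also holds other genes such as Tll1, Bmp1 and Pcolce, 2 of 14 fell and 3 rose. Plat, the tissue plasminogen activator gene, fell from 54.8 ± 4.59 to 42.3 ± 1.62 FPKM (adjusted p = 0.0052 in limma). Its log2 fold change was -0.36 in the main fit and -0.39 with the length trend removed. Tll1 fell from 1.55 ± 0.199 to 0.976 ± 0.257 FPKM, a call lost without WT replicate 2 or 4 or KO replicate 2 or 4 and with the length trend removed. The cathepsin genes Ctss (18.5 ± 6.46 to 32 ± 7.13 FPKM), Ctsh (14.6 ± 1.31 to 19.3 ± 2.73) and Ctsz (116 ± 1.08 to 133.5 ± 6.67) were the 3 that rose. None of these 3 was called without KO replicate 3 or with the length trend removed. The call of Ctsh was also lost without WT replicate 3 or KO replicate 4, and that of Ctsz without WT replicate 2, 3 or 4 or KO replicate 2.

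Of 11 tested inhibitor genes 4 fell and 3 rose, and the summed FPKM of the 12 listed was higher in KO (1659 to 1732 against 1548 to 1587), which follows its most abundant member Cst3. Cst3, the cystatin C gene, rose from 705.5 ± 60.2 to 998.6 ± 120.5 FPKM (adjusted p = 0.00513 in limma), but with its transcript of 796 nt had a log2 fold change of 0.07 with the length trend removed. Spint2 rose from 11.1 ± 0.317 to 14.4 ± 1.69 FPKM, a call lost without WT replicate 4 and with the length trend removed. Reck, a membrane-anchored inhibitor of MMPs including MMP14, fell from 2.59 ± 0.225 to 1.4 ± 0.235 FPKM (adjusted p = 0.00271), and Serpine2 from 6.03 ± 0.43 to 3.92 ± 0.887. After the length correction 6 inhibitor genes fell and 5 did not pass, with log2 fold changes of -0.44 for Reck and -0.57 for Serpine2.

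Among lysyl oxidases and collagen-modifying enzymes 5 of 11 fell in limma and the other 6 did not pass. Loxl4 fell from 1.3 ± 0.198 to 0.7 ± 0.0277 FPKM, the prolyl hydroxylase gene P4ha2 from 20 ± 1.76 to 14.2 ± 0.952, and P4ha1 from 18.7 ± 2.98 to 13.4 ± 2.15, with overlapping groups. The call of P4ha1 was lost without WT replicate 2 or 4 or KO replicate 4 and with the length trend removed, and that of Loxl4 with the length trend removed. The count was 2 without WT replicate 2, WT replicate 4 or KO replicate 4, 3 with median-ratio scaling, and 1 (P4ha2) with the length trend removed.

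Matricellular genes showed 9 of 14 lower in limma, and the other 5 did not pass. Ccn1, an immediate early gene and YAP target that encodes an integrin ligand, fell from 108.8 ± 11.5 to 41.1 ± 8.24 FPKM (log2 fold change -1.4, adjusted p = 0.000316; -1.52 with the length trend removed). Postn, the periostin gene of activated fibroblasts, and Smoc1, which encodes a SPARC-related protein, fell 2.73-fold and 2.51-fold, the latter from 1.85 ± 0.171 to 0.737 ± 0.052 FPKM. Both were still called with the length trend removed, at log2 fold changes of -1.04 for Postn and -0.63 for Smoc1. Sparc, by far the most abundant of the list, was not among the 9. The count of lower genes was 6 without KO replicate 4 and 5 with the length trend removed.

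In the list of microfibrils and elastic fibres, which also holds the multimerin genes Mmrn1 and Mmrn2, 10 of 15 genes fell and 3 rose. Fbn1 was among those that fell. Mmrn1, which encodes multimerin 1, fell from 7.26 ± 1.14 to 2.08 ± 0.784 FPKM, and Eln, the elastin gene, from 65.1 ± 3.32 to 43.1 ± 3 (log2 fold change -0.59, adjusted p = 0.000599 in limma). Mfap3, which encodes a microfibril-associated protein, fell from 11.4 ± 1.36 to 6.58 ± 0.523 FPKM. In the fit without the length trend these 3 genes were still called, with log2 fold changes of -1.29 for Mmrn1, -0.49 for Eln and -0.54 for Mfap3. The 3 that rose were Mfap2 (5.63 ± 1.25 to 9.83 ± 1.36 FPKM), Efemp2, the fibulin-4 gene (9.64 ± 0.488 to 12.5 ± 0.25), and Fbln5, the fibulin-5 gene (23.6 ± 1.1 to 28.7 ± 2.04, lost without WT replicate 4 or KO replicate 2). After the length correction 6 fell and these 3 rose, Fbln5 with a log2 fold change of 0.53 and a transcript of 6325 nt.

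**Figure D5:**
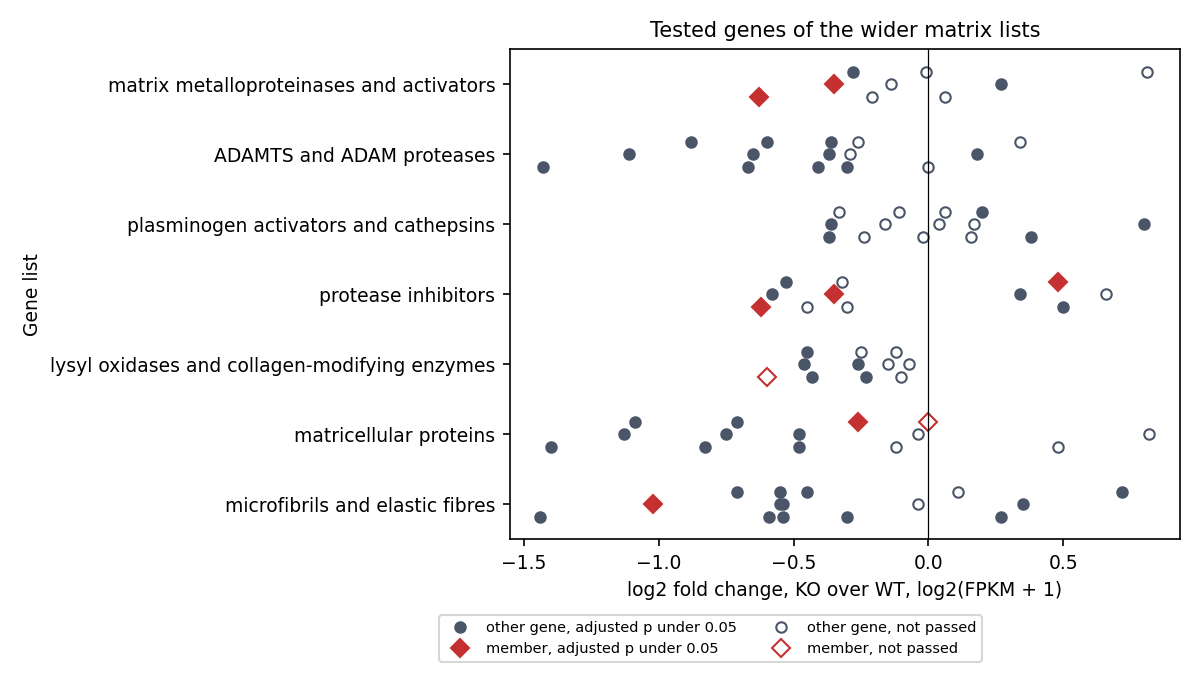
log2 fold change of KO over WT for each tested gene of the 7 matrix lists. Filled symbols mark an adjusted p under 0.05 in limma, and red diamonds mark the 9 tested of the 10 genes. Called genes lie mostly left of 0 in the ADAMTS and ADAM, matricellular and microfibril lists, and on both sides in the inhibitor and cathepsin lists.

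The annotation that the authors deposited with the FPKM values gives all 10 genes the term extracellular space. Of the 505 tested genes with that term, 29.1% were called lower in KO and 19.8% higher, near the 25.8% and 18.3% of all tested genes. After the length correction its shares were 21% and 10.1%, beside 9.63% and 10.4% of all tested genes, so its lower share was then above the background. The term extracellular matrix is held by 8 of the 10 genes. Of the 96 tested genes with it 55 fell (57.3%) and 6 rose (6.25%), where 25.8% of all tested genes fell and 18.3% rose. After the length correction 38 of the 96 fell and 6 rose, beside 9.63% and 10.4% of all tested genes. The term basement membrane is held by 6 (Fbn1, Sparc, Timp1, Timp2, Timp3 and Loxl2), and of the 59 tested genes with it 37 fell and 7 rose, or 26 and 3 with the length trend removed. Metal ion binding is held by 9 of the 10 genes. Of its 2062 tested genes 33.3% were called lower in KO and 13.4% higher. After the length correction these shares were 11.5% and 10.4%, near those of all tested genes. The terms were picked with their hold on the 10 genes known, and terms held by fewer than 6 are not given.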

How the data were processed

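The authors deposited FPKM per gene for 6 libraries, and a second table of their own comparison, per the file headers. The deposited columns of that table are p-value, q-value, log2 fold change, fold as a ratio and the normalized signal averaged by group. The submitters' processing notes name, without role or order, DESeq2 1.22.1, featureCounts 1.6.2, GATK 4.0.11.0, Cufflinks, StringTie 1.3.4d, HISAT2 2.1.0 and fastp 0.19.3, and the build mm10. Libraries were made from total RNA with a stranded mRNA kit, per the labels' protocols. Groups and replicate numbers came from the titles.

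Log2(FPKM + 1) was compared between genotypes, with no other term, by limma 3.58.1 with its trend option in R 4.3.3. The procedure was also run on simulated reads, in which far fewer genes changed than were called here. That run does not give its error rate in these data. Whole reads and implied transcript lengths were recovered from FPKM and the authors' group means (100% of values up to 1000 reads whole within 0.05), and 3207 genes had none. The length trend was a line fitted per library to deviations from each gene's mean. Coordinates came from RefSeq GRCm38.p6 by gene ID (20334 of 20893 matched). Other steps used scipy 1.17.1, pandas 2.3.3, numpy 2.4.6 and matplotlib 3.10.9 in Python 3.11.15.

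The 10 genes and the lists were chosen with earlier results of these data known. Named besides the 10 were up to 3 called genes per matrix list and direction with the smallest p, and the 3 most abundant markers per list, of which some are not reported here. Alternatives were a pseudocount of 0.1, no filter, at least 5 FPKM, quantile and median-ratio scaling, removal of the length trend, the replicate number as a block, and each library left out. Limma-voom on recovered reads was added after seeing the data.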

Additional observations from a re-analysis of the deposited data

How the results depend on the processing

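Over all tested genes the count called was 4772, and 3392 to 4380 with a library left out. It was 2169 with the length trend removed and 818 with the length trend removed and the replicate number as a block. Of the 10 genes 7 were called, and 5 to 6 with a library left out. The count was 3 without an expression filter, where more genes were tested, 4 with the length trend removed, and 2 (Fbn1 and Timp3) with the trend removed and the replicate number as a block. Of the 80 tested genes of the wider lists outside the 10, 47 were called, 34 to 45 with a library left out, 26 with the length trend removed and 17 with the trend removed and the replicate block. The difference in Ccl28 of -0.1 FPKM was -0.118 to -0.079 with a library left out. Sparc changed from 0.00 to -0.44 (log2) with quantile normalization. The cause of these moves was not tested. Over the 9 tested genes and all alternatives, 104 of 133 values stayed on their side of the threshold, 25 lost the call and 4 gained it (Loxl2 under 3 alternatives and Sparc with quantile normalization). The sign of Sparc, near 0, was the other way under 6 alternatives, and no other of the 9 genes changed sign.

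Deviations from the genotype means correlated negatively between libraries with the same number (r = -0.195, -0.349 and -0.222 for numbers 2, 3 and 4). None of the 6 correlated best with its own number. With 3 libraries per genotype the deviations within a genotype cancel, so these correlations depend on each other. Whether a shared number marks a shared batch was not tested. With the replicate block 5 of the 10 genes were called, and the calls of Sparcl1 (adjusted p = 0.108) and Mmp2 (adjusted p = 0.0589) were lost in limma. Over all genes the block left 3749 called. Count models (edgeR and DESeq2) were not run, because the deposited values are FPKM. Lox, with 127 to 236 reads, was under the expression filter and was not among the 9.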

Other observations

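Ratios between an inhibitor and a protease, and between related genes, were also formed within each library. The ratio of Timp2 to Mmp14 FPKM was 0.374 to 0.518 in WT and 0.446 to 0.564 in KO, and that of Timp2 to Mmp2 was 7.97 to 10 in WT and 8.3 to 12.3 in KO, with overlapping groups in each case. The ratio of Sparc to Sparcl1 was 2.75 to 3.66 in WT and 3.23 to 4.26 in KO, also overlapping. The ratio of Loxl2 to Lox was 2.22 to 3.5 in WT and 2.15, 2.4 and 0.553 in KO replicates 2, 3 and 4, so that KO replicate 4 alone lay far from the other libraries. The 10 genes took 0.916% to 1.02% of all reads in WT and 0.797% to 0.889% in KO.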
